A study of Mus musculus with 12 samples.

Results

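The genes of intraflagellar transport (IFT) and of the BBSome were measured in round spermatids (RS), the haploid germ cells in which the sperm tail is begun. A pattern in gene symbols (Ift, Bbs or Dync2 names) and a fixed list took 40 of the 28643 symbols in the deposited expression table. Of these, 39 code for protein and are the listed members. The remaining symbol, Ift88os, is a noncoding RNA on the opposite strand of Ift88 and is described apart. RS were sorted by flow cytometry, with cycloheximide present to hold ribosomes in place, from testes of 8-week-old male mice. The controls were heterozygous for Igf2bp3 (Igf2bp3+/-) and the knockouts were homozygous (Igf2bp3-/-) for a Cas9-made frameshift in this gene, which encodes an RNA-binding protein. By the study's methods, the knockout males for the set of experiments that includes these libraries were picked for impaired fertility. By the titles and genotype labels both groups carried the edited allele and no wild type was measured, although the columns of the deposited table name the controls WT. Total polyadenylated RNA (RNA-seq) and polyadenylated RNA from polysomes with at least 4 ribosomes (RNC-seq) were sequenced, in 3 replicates for each of the 4 groups, 12 libraries in all. Per the study's methods RS were collected from each mouse separately, and part of an extract served for RNA-seq while the rest was fractionated for RNC-seq, so the assays share extracts. Values are FPKM, fragment numbers divided by transcript length and by the size of the library, so they are relative within a library.

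IFT is the bidirectional traffic of protein trains along the microtubules of a cilium or flagellum, and it builds and maintains both. IFT-B trains are driven to the tip by kinesin-2, and IFT-A with the dynein-2 motor serves the return. The BBSome is an adaptor that rides on IFT trains and carries membrane proteins, and mutations in its genes cause Bardet-Biedl syndrome. In the male germ line, IFT proteins are needed to assemble the sperm tail.

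Many ciliary genes carry an X-box, the site bound by RFX transcription factors, close to their start. A promoter window of 250 bases before to 50 bases after the gene start was at hand for 34 members (RefSeq, GRCm38.p6). The X-box letters (GT, any 2 bases, CC, any 3 bases, G, any base, AAC), searched on both strands, were in 7 of the 34 windows, which is 20.6%, and in 2.49% of the windows of 27025 genes. The windows with a match belonged to Ift22, Ttc26 and Ttc30a2 of the IFT-B core, to Ift57 of the IFT-B periphery and to Bbs1, Bbs4 and Bbs7 of the BBSome. No match in a window says only that these letters are not there. The sites are shown because they are what a share of the IFT-B and BBSome genes has in common in sequence, each with 8 flanking bases a side and the X-box letters in capitals, on the strand named.
Ttc26, chr6:38381483-38381512, plus strand: ccggcggcGTTGCCGTGGAAACggagctcg
Ift22, chr5:136908109-136908138, plus strand: tgttcccgGTCGCCGTGGAAACtgaccagc
Ift22, chr5:136908079-136908108, minus strand: gctgcgcaGTAGCCCAGGAAACcctgacag
Ttc30a2, chr2:75978182-75978211, minus strand: gttggcttGTTGCCATGGGAACaagcacac
Ift57, chr16:49699199-49699228, minus strand: ggcagccgGTCACCACGGCAACcagacccg
Bbs1, chr19:4906605-4906634, plus strand: tcccaggcGTCGCCTTGGCAACcagctcag
Bbs4, chr9:59353464-59353493, minus strand: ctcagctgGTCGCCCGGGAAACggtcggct
Bbs7, chr3:36613489-36613518, minus strand: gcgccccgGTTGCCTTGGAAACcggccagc

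The sites of Ttc26, Ttc30a2 and Bbs7 matched on the opposite strand as well. Ift22 had 2 separate sites in its window. Counted from the gene start, the sites began between 121 bases before it, in Bbs7, and 23 bases after it, in Bbs4. A cyclic AMP response element (TGACGTCA, both strands), bound by CREB-family factors such as CREM in RS, was in 2 of 34 windows (5.88%, Ift57 and Mkks) and in 2.03% of all windows. Its shorter form TGACG, which every TGACGTCA also holds, was in 32.4% of the members' windows against 23% of all, and the CCAAT box in 61.8% against 41.1%. Members with an X-box had a median of 27.5 FPKM in Igf2bp3+/- RNA-seq and those without one 21.6 FPKM.

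Before the results, the libraries were set against the labels. Genes above 0 FPKM numbered 23554 to 25633 in RNA-seq and 21490 to 22797 in RNC-seq libraries, and replicates of a group correlated at r = 0.960 to 0.991 over 11389 genes, lowest within Igf2bp3-/- RNC-seq. A single gene, CT010467.1, took 9.22 to 13.3% of the summed FPKM in Igf2bp3+/- and 5.68 to 9.25% in Igf2bp3-/- RNA-seq. In RNC-seq it took 15.9 to 19.4% and 8.14 to 14.6%, without overlap, and its part in the relative FPKM of the other genes was not tested. Igf2bp3 stood at 33.4 to 38.6 FPKM in Igf2bp3+/- RNA-seq and at 31.4 to 32.5 FPKM in Igf2bp3-/- RNA-seq. A frameshift can leave the transcript in place, so its level does not check the genotype labels. Markers of RS (Acrv1, Spaca1, Acr, Tssk1, Tex101, Catsper3) summed to 655 to 760 FPKM in Igf2bp3+/- and 863 to 1008 FPKM in Igf2bp3-/- RNA-seq, and to 828 to 990 and 1020 to 1325 FPKM in RNC-seq. The genotypes did not overlap in either assay. All 6 had a log2 difference above 0 in both assays with 0 past the adjusted limit (limma), and none was at 0 in every library of a group. Markers of multiciliated epithelium (5 of 6 present) summed to 454 to 511 FPKM and 539 to 617 FPKM in RNA-seq, again without overlap, and to 475 to 507 and 493 to 694 FPKM in RNC-seq. Of the 4 tested, 3 were higher in the knockouts in RNA-seq and 4 in RNC-seq, with 0 past the limit. Foxj1, 1 of the markers, had a log2 difference of -0.02 in RNA-seq. Whether these transcripts came from such an epithelium or from RS was not tested. Markers of elongating spermatids (Prm1, Tnp1 and others) summed to 9092 to 11719.9 FPKM in Igf2bp3+/- and 10192.5 to 10314.6 FPKM in Igf2bp3-/- RNA-seq. In RNC-seq they summed to 12356.5 to 14746.4 and 11218.4 to 22001.8 FPKM. Of the 7 tested, 2 were higher in the knockouts in RNA-seq and 6 in RNC-seq, with 0 past the limit. Markers of spermatocytes summed to 486 to 512 FPKM in Igf2bp3+/- and 478 to 566 FPKM in Igf2bp3-/- RNA-seq. In RNC-seq they summed to 433 to 519 and 429 to 505 FPKM. Of the 7 spermatocyte markers tested, 7 were higher in the knockouts in RNA-seq and 3 in RNC-seq, with 0 past the limit. Markers of spermatogonia summed to 5.81 to 8.11 and 5.78 to 7.69 FPKM in RNA-seq, and 2 of 4 tested were higher in the knockouts. The summed level of 8 Leydig cell markers was higher in the knockouts, at 15.4 to 22.6 FPKM in Igf2bp3+/- and 48.7 to 55.2 FPKM in Igf2bp3-/- RNA-seq, and at 6.82 to 14.3 and 51.5 to 103 FPKM in RNC-seq. Of the 7 Leydig markers tested, 7 were higher in the knockouts in both assays and 4 and 1 passed the test, and Hsd17b3 was at 0 in every Igf2bp3+/- RNA-seq library. Markers of macrophages and blood summed to 4.60 to 5.64 FPKM in Igf2bp3+/- and 10.3 to 11.7 FPKM in Igf2bp3-/- RNA-seq. In RNC-seq they summed to 9.21 to 10.3 and 10.9 to 26.1 FPKM. Of these markers, 7 of 7 tested were higher in the knockouts in RNA-seq and 5 of 5 in RNC-seq, and 2 and 0 passed. Sertoli markers summed to 3.91 to 4.75 and 7.40 to 7.99 FPKM in RNA-seq. Of the 6 Sertoli markers tested in RNA-seq, only 3 were higher in the knockouts and 1 passed. Peritubular markers summed to 1.55 to 1.73 FPKM in Igf2bp3+/- and 1.05 to 1.60 FPKM in Igf2bp3-/- RNA-seq. Of those tested, 1 of 4 was higher in the knockouts in RNA-seq and 3 of 3 in RNC-seq, and 0 passed. The part of any of these shifts in the genotype comparisons of the members was not tested. In bulk libraries fewer cells of a type and less RNA per cell cannot be told apart.

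In Igf2bp3+/- RS, transcripts of the transport machinery were well above the typical gene. Of the 39 members 38 were above 1 FPKM, 27 above 10 FPKM and 4 above 100 FPKM. The median member stood at 25.3 FPKM, against 1.91 FPKM over the 20494 genes above 0.1 FPKM, of which 25.9% were above 10 FPKM. Leaving out any 1 of the 3 libraries left 27 members above 10 FPKM. The order of levels was fine-grained, and in only 10 of its 38 neighbouring pairs did the 3 libraries of the higher gene all lie above those of the lower one.

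IFT-A, the retrograde train complex, had the highest median of the complexes, 109 FPKM over its 6 members. Ift122, a WD-repeat subunit of its core, stood at 152, 156 and 189 FPKM in the 3 Igf2bp3+/- RNA-seq libraries and had the highest mean of all members, 166 ± 20.3 FPKM (SD, n = 3). Ift43, the smallest IFT-A subunit, followed with 154, 150 and 132 FPKM, and Ift140, another core subunit, had 116, 126 and 154 FPKM. The libraries of these 3 genes overlapped, so their order is not set beyond the spread. Wdr35 (IFT121) had a mean of 85.1 FPKM, while Wdr19 (IFT144) and Ttc21b (IFT139) were 35.1 and 32.9 FPKM. Ift172, the largest IFT-B subunit, belonged to the same high range with 130, 134 and 146 FPKM.

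Within the IFT-B core (median 21.6 FPKM over 11 members), the 3 closely related copies of the TTC30 (IFT70) gene differed most. Ttc30a2 had 76.2, 83.2 and 77.7 FPKM, Ttc30b 4.73, 5.76 and 5.24 FPKM, and Ttc30a1 3.78, 3.35 and 3.55 FPKM. The mean of Ttc30a2 was thus 22.2 times that of Ttc30a1 and 15.1 times that of Ttc30b, and no libraries overlapped. The 3 genes lie side by side on the minus strand of chromosome 2, each as a single-exon gene with 1992 coding bases, and the annotated end of Ttc30a1 is 76 bases from the start of Ttc30a2. Their transcripts share 94.3 to 95.6% of their bases over the aligned stretch, so the share of reads that the authors' counting gave to each copy is uncertain. The X-box of Ttc30a2 shown above sits in those 76 bases.

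The coiled-coil pair that binds tubulin, Ift74 and Ift81, had means of 71.2 and 42.5 FPKM. The small GTPases Ift22 and Ift27 had 29.7 and 21.2 FPKM, and Ift88, the IFT-B subunit whose hypomorphic mouse lacks normal cilia, had 27.6, 24.8 and 23.5 FPKM. Ift52 (21.6 FPKM), Ift46 (14.0 FPKM) and Ttc26 (IFT56, 7.99 FPKM) were the other core genes among the members, which need not hold every subunit. In the periphery, Ift57, Ift20 and Cluap1 (IFT38) lay together at 27.5, 27.0 and 26.8 FPKM. Ift20, the subunit also found at the Golgi, had 30.8, 30.2 and 20.1 FPKM. Traf3ip1 (IFT54) followed with 15.2 FPKM, and Ift80 was lowest of the periphery with 5.66, 6.63 and 5.01 FPKM. Of these, 22.4% of the exonic bases of Cluap1 are shared with a same-strand gene, Gm20695, and its value is uncertain for that reason.

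The dynein-2 subunits among the members spanned 9.79 FPKM for the heavy chain Dync2h1, which holds the motor domain, to 37.3 FPKM for Wdr60. Between them lay Wdr34 with 16.6 FPKM and the light intermediate chain Dync2li1 with 29.7 FPKM. The light chains are not among the members, and Tctex1d2, a light chain of dynein-2, had a mean of 150 FPKM. Wdr34 and Wdr60 are the intermediate chains. The BBSome was lower, with a median of 10.5 FPKM over 8 members, and unequal. Bbs5, a subunit with lipid-binding PH-like domains, had 74.8, 68.2 and 66.0 FPKM, and Ttc8 (BBS8) had 1.29, 1.44 and 1.11 FPKM, a 54.6-fold range within a single complex. Between them lay Bbs7 (32.9 FPKM), Bbip1 (BBS18, 19.6 FPKM), Bbs9 (14.5 FPKM), Bbs2 (6.58 FPKM), Bbs4 (5.02 FPKM) and Bbs1 (2.74 FPKM).

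Arl6 (BBS3), the GTPase that brings the BBSome to membranes, had 29.6 FPKM. The chaperonin-like proteins, which assist BBSome assembly, had the lowest levels as a group. Bbs10 and Bbs12 stood at 7.12 and 3.38 FPKM, and Mkks (BBS6) at 0.513, 0.664 and 0.415 FPKM. Mkks was the only member under 1 FPKM, and 29.3% of its exonic bases are shared with same-strand genes, so its level is uncertain. The noncoding Ift88os was near 0, at 0.135, 0 and 0.190 FPKM in Igf2bp3+/- and 0.0731, 0.0371 and 0.0700 FPKM in Igf2bp3-/- RNA-seq, and in RNC-seq it was above 0 in 1 of 6 libraries. It was under the 0.1 FPKM mean that the tests required.

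**Figure D1:**
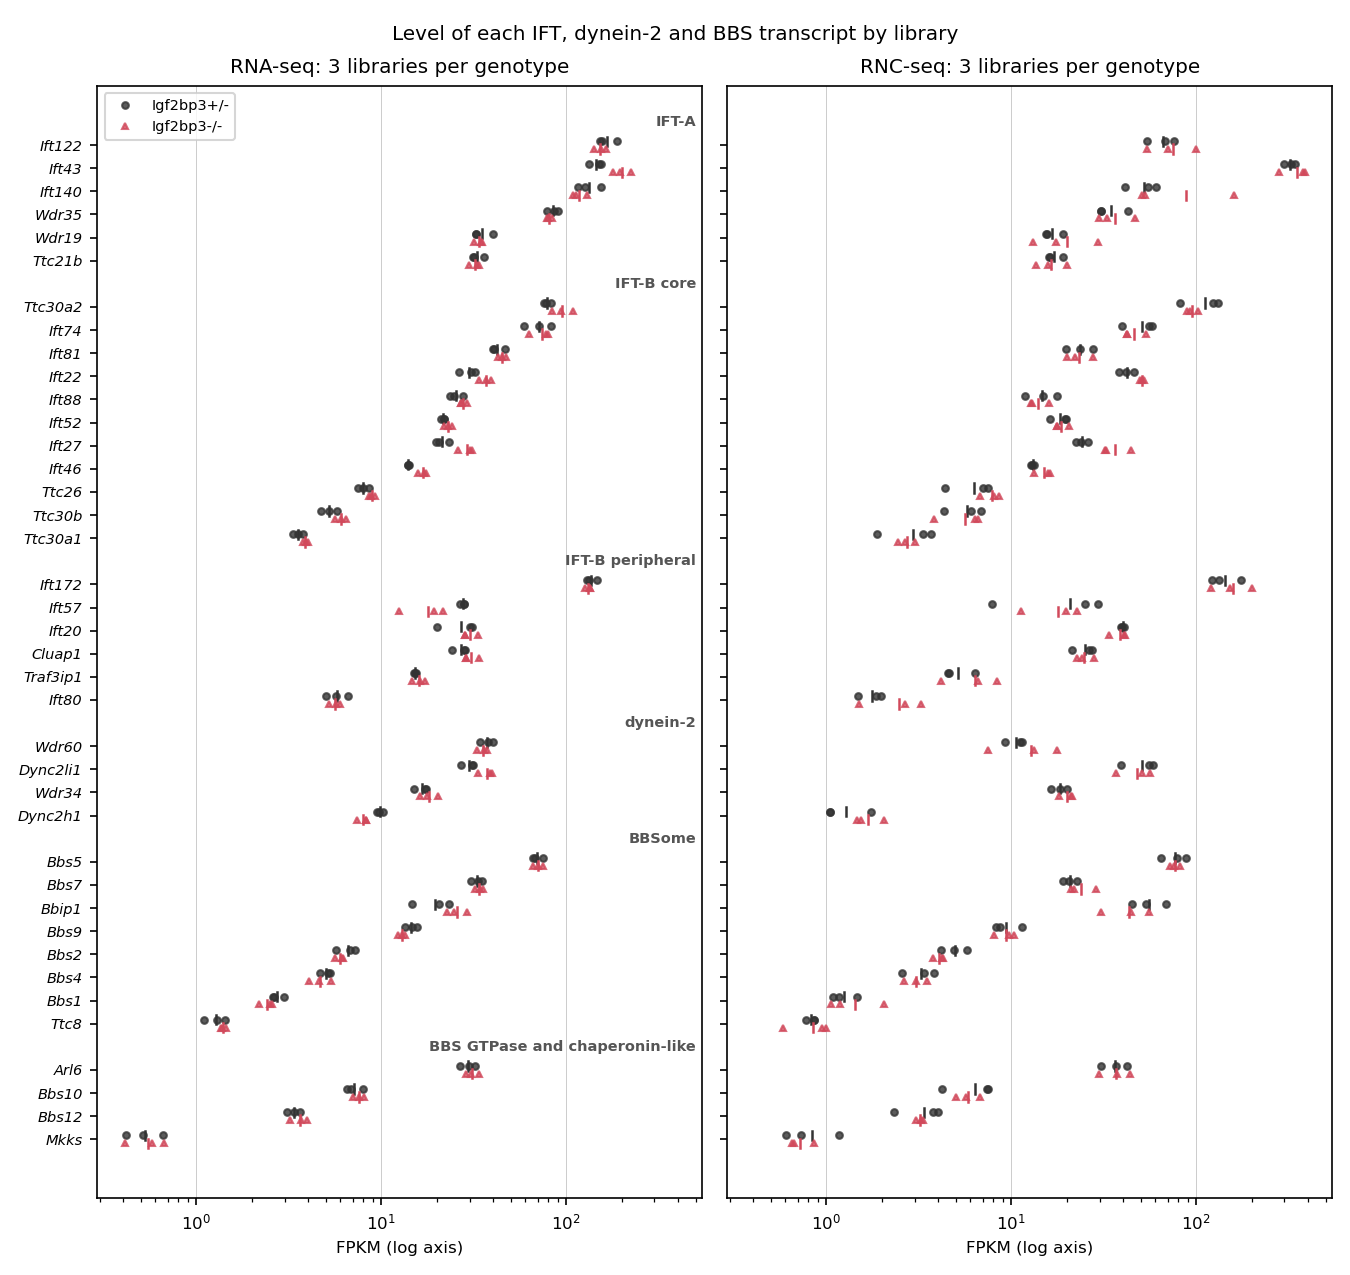
FPKM on a log axis of the 39 members in RNA-seq (left) and RNC-seq (right), 3 libraries per genotype (points; short bars are means), grouped by complex and ordered by Igf2bp3+/- RNA-seq. In RNA-seq Ift122, Ift43, Ift140 and Wdr35 of IFT-A and Ift172 sit highest and Mkks lowest at 0.531 FPKM, and the Ttc30a2 points lie 22.2 times above those of Ttc30a1 on the mean.

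The first comparison asked whether loss of Igf2bp3 changed the total RNA of the members. No member passed the test (limma on log2(FPKM + 0.1), 3 against 3 libraries, 2-sided, Benjamini-Hochberg adjusted p under 0.05 over 20352 genes), where 0.197% of all genes passed as higher and 0.059% as lower in Igf2bp3-/-. Their log2 differences (Igf2bp3-/- minus Igf2bp3+/-) ran from -0.66 to 0.45 with a median of 0.07, against 0.05 over all genes tested. The 95% intervals of all 39 lay between -1.08 and 0.80. At an unadjusted p under 0.05, 7 members were higher and 2 lower, against 10.4% and 5.32% of all genes. With a 1.5-fold change asked for as well, a limit added after the data had been seen, 0 were higher and 1 lower (Ift57), against 2.92% and 2.53% of all genes. Groups did not overlap for 9 members on the higher and 3 on the lower side, where 14.1% and 8.68% of all genes did not overlap.

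The smallest p-values belonged to a pair of small subunits. Ift43 was 154, 150 and 132 FPKM in Igf2bp3+/- and 179, 196 and 223 FPKM in Igf2bp3-/- RNA-seq. All 3 knockout libraries lay above all 3 controls, at a log2 difference of 0.45 (SE 0.11, limma adjusted p = 0.161). Ift27, the small GTPase that links IFT-B to the BBSome, was 20.6, 23.2 and 19.7 against 25.9, 30.3 and 31.1 FPKM, again without overlap, at 0.45 (SE 0.11, limma adjusted p = 0.163). Neither passed the adjusted limit.

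Ift57, a coiled-coil subunit of the IFT-B periphery, had the most negative difference. It was 26.8, 27.9 and 27.9 FPKM in Igf2bp3+/- and 21.6, 19.3 and 12.5 FPKM in Igf2bp3-/-. The groups did not overlap and the knockout libraries were spread widely, at -0.66 (SE 0.18, limma adjusted p = 0.193). On the opposite strand, Gm15518 covers 7.86% of its exonic bases. Dync2li1 was 30.8, 31.3 and 27.1 against 33.3, 38.8 and 39.8 FPKM, at 0.33 (SE 0.11, limma adjusted p = 0.226). The GTPase Ift22 was 30.7, 32.1 and 26.3 against 33.7, 36.9 and 39.3 FPKM, at 0.30 (SE 0.11, limma adjusted p = 0.25). Both pairs of groups stood apart without passing the limit.

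By complex, all 11 IFT-B core members had a log2 difference above 0, with a median of 0.15, while 56.2% of all genes were above 0 and 43.8% below. With quantile normalisation 9 of the 11 were above 0, and 10 of 11 with library weights or with the trend on transcript length removed. Of the 6 IFT-A members 5 were below 0, with a median of -0.06, and Ift43 was the exception. With either of the latter settings 3 of the 6 were below 0. The 8 BBSome members were split 4 and 4, but 2 were above 0 and 6 below with quantile normalisation, library weights or the length trend removed. Without replicate 3 of Igf2bp3+/- RNA-seq, 10 of 11 IFT-B core, 3 of 6 IFT-A and 2 of 8 BBSome members were above 0. Members of a complex are measured in the same libraries and are not independent of each other. Ift88 stood at 27.6, 24.8 and 23.5 against 26.9, 27.0 and 29.2 FPKM (0.13, SE 0.10, limma adjusted p = 0.538), and Ift20 at 30.8, 30.2 and 20.1 against 28.5, 28.3 and 33.5 FPKM (0.18, SE 0.17, limma adjusted p = 0.639). In both genes the genotypes overlapped.

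On polysomes, the members again did not separate by genotype past the limit. No member passed the test in RNC-seq (limma, adjusted over 19051 genes), where 0.0787% of all genes passed as higher and 0.0367% as lower. At an unadjusted p under 0.05, 1 member was higher and 0 were lower, against 5.36% and 1.12% of all genes. The member was Ift27, which fell short of a 1.5-fold change. Of all genes 4.73% were past both limits on the higher and 1.06% on the lower side. For Ift27, the 22.3, 23.8 and 25.8 FPKM in Igf2bp3+/- RNC-seq and 44.6, 32.5 and 32.0 FPKM in Igf2bp3-/- did not overlap, at 0.58 (SE 0.21, limma adjusted p = 0.735). Ift22 was the other member whose groups stood apart, at 46.0, 41.5 and 38.5 against 51.1, 52.2 and 49.4 FPKM (0.28, SE 0.19, limma adjusted p = 0.831). The 2 members compare with 9.44% of all genes that stood apart on this side, and 0 members with 1.85% on the lower side.

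The median log2 difference of the members in RNC-seq was 0.01, while that of all genes was 0.13. When every library was shifted to a common median, all genes moved by -0.12 and the members' median to -0.11, so the members sat below the typical gene by a like amount on either scale. Ift140 rested on a single library. It was 41.2, 60.7 and 54.8 FPKM in Igf2bp3+/- and 52.9, 159 and 50.9 FPKM in Igf2bp3-/- RNC-seq, at 0.55 (SE 0.38, limma adjusted p = 0.831). Replicate 2 of Igf2bp3-/- RNC-seq was also the highest of its group for Ift122, Wdr35, Wdr19 and Ttc21b, the other large IFT-A subunits. Bbip1, the smallest BBSome subunit, was 68.9, 45.2 and 53.6 against 44.5, 30.4 and 55.5 FPKM (-0.38, SE 0.26, limma adjusted p = 0.831), and Ttc26 was 7.48, 4.40 and 7.08 against 6.80, 8.63 and 8.11 FPKM (0.34, SE 0.26, limma adjusted p = 0.834). In these 2 genes the genotypes overlapped.

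Translational efficiency (TE), the RNC-seq value over the RNA-seq value, was compared between genotypes by the genotype-by-assay interaction, fitted to the 12 libraries together. No member passed (limma, adjusted over 18414 genes), where 0.00543% of all genes passed as higher and 0% as lower. At an unadjusted p under 0.05, 1 member was higher and 1 lower, against 5.54% and 1.58% of all genes. Both also changed by over 1.5-fold, as did 5.19% of all genes on the higher and 1.37% on the lower side. Dync2h1, the dynein-2 motor chain, was 9.43, 9.68 and 10.3 FPKM in Igf2bp3+/- and 8.27, 8.31 and 7.37 FPKM in Igf2bp3-/- RNA-seq, and 1.04, 1.04 and 1.75 against 1.54, 2.05 and 1.47 FPKM in RNC-seq. Its total RNA stood apart on the lower side while its polysomal RNA overlapped, and the log2 TE difference was 0.69 (SE 0.30, limma adjusted p = 0.689). Bbip1 went the other way. It was 23.4, 20.6 and 14.7 against 22.7, 24.6 and 29.2 FPKM in RNA-seq, so that with the RNC-seq values above its log2 TE difference was -0.78 (SE 0.33, limma adjusted p = 0.689).

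The next smallest p-values for TE were those of Ttc30a2 (-0.48, SE 0.25, limma adjusted p = 0.712), Ift43 (-0.35, SE 0.21, limma adjusted p = 0.729) and Dync2li1 (-0.42, SE 0.27, limma adjusted p = 0.735). Over the members the median difference in log2 TE was -0.03, and over all genes 0.06. Taken as the plain ratio of mean FPKM, with no test, TE was more than 1.5-fold apart in 3 members. The ratio went from 0.131 to 0.211 in Dync2h1 and from 0.395 to 0.749 in Ift140, where the single library of 159 FPKM weighs on the mean, and it went from 2.86 to 1.70 in Bbip1.

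**Figure D2:**
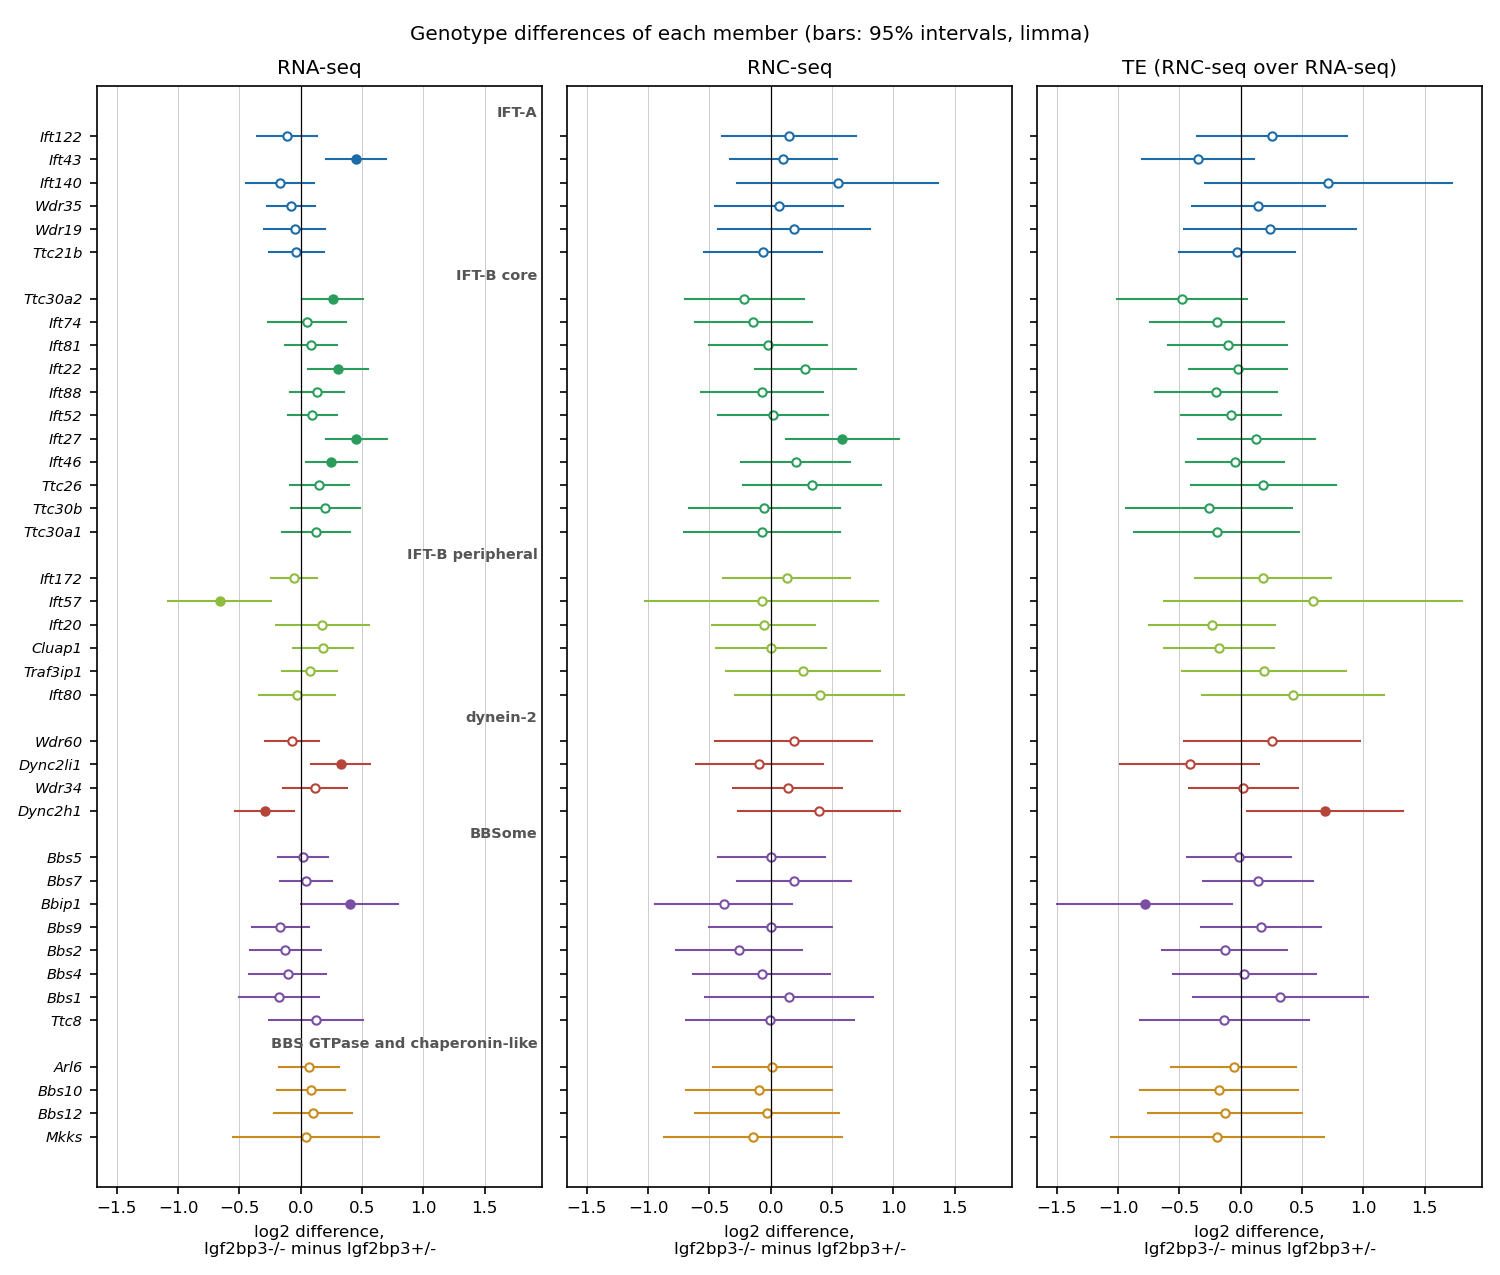
Log2 difference between genotypes of each member in RNA-seq, RNC-seq and TE, with 95% intervals from limma (3 libraries per group). Filled points have an unadjusted p under 0.05 (9, 1 and 2 members), no point passes the adjusted limit, and colours mark the complex.

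The members differed more widely between assays, by log2 values of -2.88 to 1.51, than between genotypes in either assay, by -0.66 to 0.58. Polysome loading is used here for the log2 of RNC-seq over RNA-seq within a genotype; since FPKM is relative to its own library, a loading of 0 means the same place in both libraries and not a count of ribosomes. In Igf2bp3+/- RS 20 of 39 members passed the test (limma, adjusted over 18414 genes). Of these, 5 were higher in RNC-seq, where 18.2% of all genes were higher, and 15 were lower, where 25.2% of all genes were lower. The median loading was -0.37 over the members and -0.10 over all genes. Centring the libraries moved the median of all genes by 0.17, to 0.07, and that of the members to -0.20. With centring 7 members were higher and 14 lower, against 25.8% and 20% of all genes. Without replicate 3 of Igf2bp3+/- RNA-seq, 3 members were higher and 16 lower, against 13.1% and 20.5% of all genes.

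Dync2h1 was the least loaded. Its 9.43, 9.68 and 10.3 FPKM of total RNA faced 1.04, 1.04 and 1.75 FPKM on polysomes, a loading of -2.88 (SE 0.22, limma adjusted p = 8.23e-05). Wdr60, an intermediate chain of the motor, went from 40.0, 37.9 and 34.0 FPKM to 9.29, 11.1 and 11.4 FPKM, a loading of -1.80 (SE 0.14, limma adjusted p = 8.16e-05). The light intermediate chain of the same motor was on the opposite side, as Dync2li1 had 30.8, 31.3 and 27.1 FPKM in total RNA and 58.7, 39.1 and 55.8 FPKM on polysomes (0.76, SE 0.17, limma adjusted p = 0.00736). Wdr34 did not pass (0.14, SE 0.14, limma adjusted p = 0.449). Subunits of a single motor thus lay on both sides of 0.

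IFT-A was split in the same manner. Its 5 large subunits were all lower on polysomes, with loadings from -1.35 in Ift140 to -0.95 in Ttc21b. Ift140 went from 116, 126 and 154 FPKM to 41.2, 60.7 and 54.8 FPKM (SE 0.17, limma adjusted p = 0.000578). Ift43 was higher, from 154, 150 and 132 FPKM to 344, 297 and 325 FPKM (1.15, SE 0.12, limma adjusted p = 0.000214). The total RNA of Ift43, Ift122 and Ift140 overlapped, and on polysomes Ift43 stood above every library of the other 5. With the trend on transcript length removed, Wdr19 (-0.32, limma adjusted p = 0.070) and Ttc21b (-0.25, limma adjusted p = 0.107) no longer passed, and the median of IFT-A went from -1.19 to -0.43.

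In IFT-B, Ift80 and Traf3ip1 were the members with the lowest loading. Ift80, a subunit mutated in a skeletal ciliopathy, went from 5.66, 6.63 and 5.01 FPKM to 1.99, 1.48 and 1.86 FPKM (-1.65, SE 0.19, limma adjusted p = 0.000361). Traf3ip1 went from 15.0, 15.2 and 15.5 FPKM to 4.61, 4.54 and 6.39 FPKM (-1.55, SE 0.17, limma adjusted p = 0.000258). Ift81 and Ift88 were also lower, at -0.85 (SE 0.15) and -0.79 (SE 0.17), and the libraries did not overlap in any of the 4. Ift20 and Ift22 were higher, at 0.59 (SE 0.17, limma adjusted p = 0.0244) and 0.50 (SE 0.13, limma adjusted p = 0.0154). The TTC30 copies did not pass, at 0.47 (SE 0.18, limma adjusted p = 0.0639) for Ttc30a2, 0.11 (SE 0.20) for Ttc30b and -0.31 (SE 0.25) for Ttc30a1. With the length trend removed Ttc30a2 passed, at 0.66 (SE 0.15, limma adjusted p = 0.00644), and Ttc30a1 turned to 0.11 (SE 0.23).

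In the BBSome, Bbs1, Bbs4, Bbs7 and Bbs9 were lower on polysomes, at -1.09 to -0.63, and Bbip1 was higher, from 23.4, 20.6 and 14.7 FPKM to 68.9, 45.2 and 53.6 FPKM (1.51, SE 0.21, limma adjusted p = 0.000829). Bbip1 had the highest loading of all 39 members. With the trend on transcript length removed, Bbs7 (-0.43, limma adjusted p = 0.0102) passed as lower, while Bbs1, Bbs4 and Bbs9 (-0.41, -0.20 and -0.24) did not. None of Arl6, Mkks, Bbs10 and Bbs12 passed, with loadings of -0.20 to 0.54.

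In Igf2bp3-/- RS, 3 members were higher in RNC-seq, against 10.2% of all genes, and 10 were lower, against 11% of all genes, with a median of -0.37 over the members and -0.04 over all genes. Of the members called, 9 were lower in both genotypes (Ift122, Wdr35, Ttc21b, Ift81, Ift88, Ift80, Traf3ip1, Dync2h1 and Wdr60), which is 60% of those lower in Igf2bp3+/- and 90% of those lower in Igf2bp3-/-. Ift43, Ift22 and Bbip1 were higher in both, and 37 of 39 members had the same sign. The shares of all genes called in both genotypes, or of the same sign in both, were not taken. Whether the members differ from other genes in this is therefore not known. The genotypes do not share libraries. Without regard to the adjusted limit, all RNC-seq libraries lay below all RNA-seq libraries for 19 members in Igf2bp3+/- (32.9% of all genes) and 21 in Igf2bp3-/- (21.5% of all genes), and above them for 5 members in each (22.7% and 19.2% of all genes).

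The count in Igf2bp3-/- turned on single libraries. Without replicate 2 of Igf2bp3-/- RNC-seq 18 members were lower, against 17.3% of all genes, and Ift140 then had a loading of -1.17 (limma adjusted p = 0.000722) in place of -0.63 (SE 0.38, limma adjusted p = 0.266). Without replicate 2 of Igf2bp3-/- RNA-seq 6 were lower, against 4.03% of all genes. The 3 higher members had limma adjusted p-values of 0.0156 (Ift43), 0.0498 (Ift22) and 0.0491 (Bbip1). Leaving out 1 library changed their number to between 0 and 4, where 2.55 to 16.9% of all genes were higher. Of the other members named above, loadings in Igf2bp3-/- were -2.19 (SE 0.20) for Dync2h1, -1.55 (SE 0.28) for Wdr60, -1.36 (SE 0.25) for Traf3ip1 and -1.22 (SE 0.27) for Ift80, all past the limit, and 0.36 (SE 0.16) for Ift20 and 0.35 (SE 0.19) for Dync2li1, both short of it. As the TE comparison above shows, no loading differed between genotypes past the adjusted limit.

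**Figure D3:**
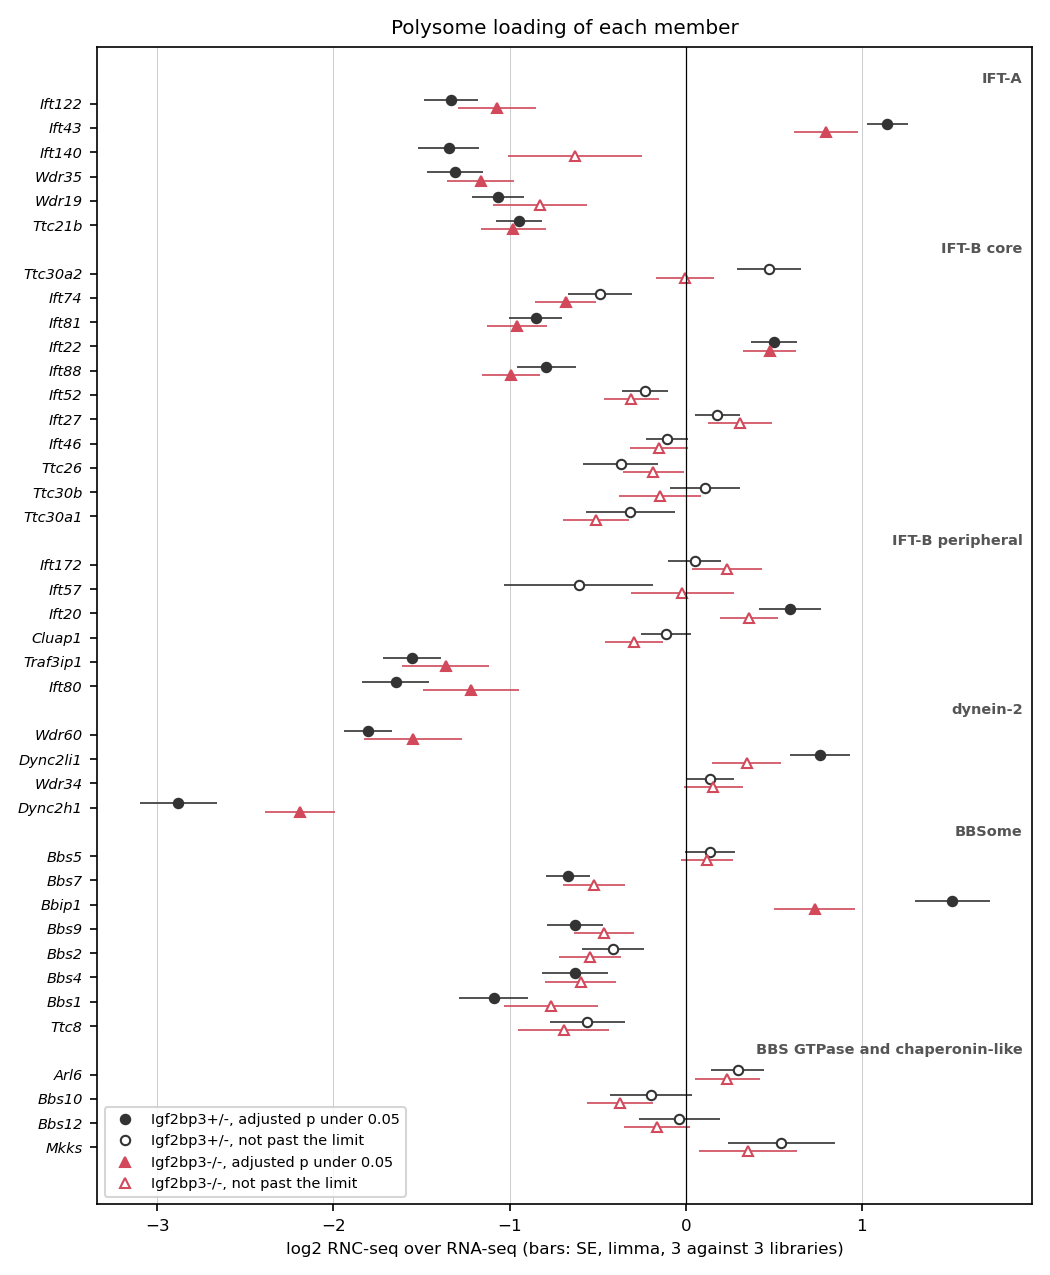
Polysome loading (log2 RNC-seq over RNA-seq, bars are SE) of each member in Igf2bp3+/- (circles) and Igf2bp3-/- (triangles), filled where the adjusted p is under 0.05. Large IFT-A subunits, Wdr60 and Dync2h1 lie left of 0 in both genotypes, while Ift43 (1.15 and 0.80) and Bbip1 (1.51 and 0.73) lie right of it.

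Loading followed the length of the coding sequence, in the members and in all genes. Over the 39 members it correlated with the log2 of the longest coding sequence at Pearson r = -0.78 and Spearman rho = -0.73 in Igf2bp3+/-, and at -0.76 and -0.71 in Igf2bp3-/-. Over 12816 protein-coding genes the values were -0.55 and -0.54, and -0.53 and -0.51. These are descriptions across genes measured in the same libraries, and genes are not independent replicates. The 7 members with up to 1000 coding bases included 4 of the 5 higher ones (Ift43, Ift22, Ift20 and Bbip1) and none that was lower, with a median loading of 0.50 against 0.28 for all genes of that length, of which 33.1% were higher and 11.3% lower. Of the 16 members from 1000 to 2000 bases 3 were lower, where 27.7% of all genes of that length were. Of the 9 from 2000 to 3000 bases 6 were lower, against 50.5% of all, and of the 7 above 3000 bases 6, against 71.1%. In that longest class the median was -1.31 for the members and -1.12 for all genes.

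The exception among the longest was Ift172. Its 5247 coding bases are exceeded only by the 12939 of Dync2h1. It had 130, 134 and 146 FPKM in total RNA and 175, 121 and 133 FPKM on polysomes in Igf2bp3+/-, a loading of 0.05 (SE 0.15, limma adjusted p = 0.817). In Igf2bp3-/- the loading was 0.23 (SE 0.20, limma adjusted p = 0.437). In Igf2bp3+/- its RNA-seq and RNC-seq libraries overlapped, unlike those of the 5 large IFT-A subunits, whose coding sequences of 3543 to 4392 bases are shorter. In Igf2bp3-/- the libraries of Ift172 and of Ift140 overlapped, while those of the other 4 large IFT-A subunits did not.

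With the trend on the length of the longest annotated transcript removed from each library, a setting added after the data had been seen, 9 members were higher and 9 lower in Igf2bp3+/- (22.4% and 16.8% of the genes with a known length), and 3 were higher and 9 lower in Igf2bp3-/- (10.1% and 7.52%). Of the 15 members lower in Igf2bp3+/- without this step, Wdr19, Ttc21b, Ift88, Bbs1, Bbs4 and Bbs9 lost the call, and Ift80 lost it in Igf2bp3-/-. Ift46, Ttc30a2, Ift172 and Mkks were newly called higher in Igf2bp3+/-. Ift172 was then higher in Igf2bp3+/-, at 0.70 (SE 0.14, limma adjusted p = 0.00452), and at 0.64 (SE 0.24, limma adjusted p = 0.0942) in Igf2bp3-/-. Dync2h1, Wdr60 and Traf3ip1 stayed lower in both genotypes, at -1.66, -1.38 and -1.17 in Igf2bp3+/- and at -1.43, -1.29 and -1.13 in Igf2bp3-/-. Ift43 and Bbip1 stayed higher in both, at 0.80 and 1.64 in Igf2bp3+/- and at 0.51 and 0.78 in Igf2bp3-/-. The median loading of the members on this scale was -0.08 in Igf2bp3+/- and -0.23 in Igf2bp3-/-, against 0.06 and 0.04 over all genes.

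**Figure D4:**
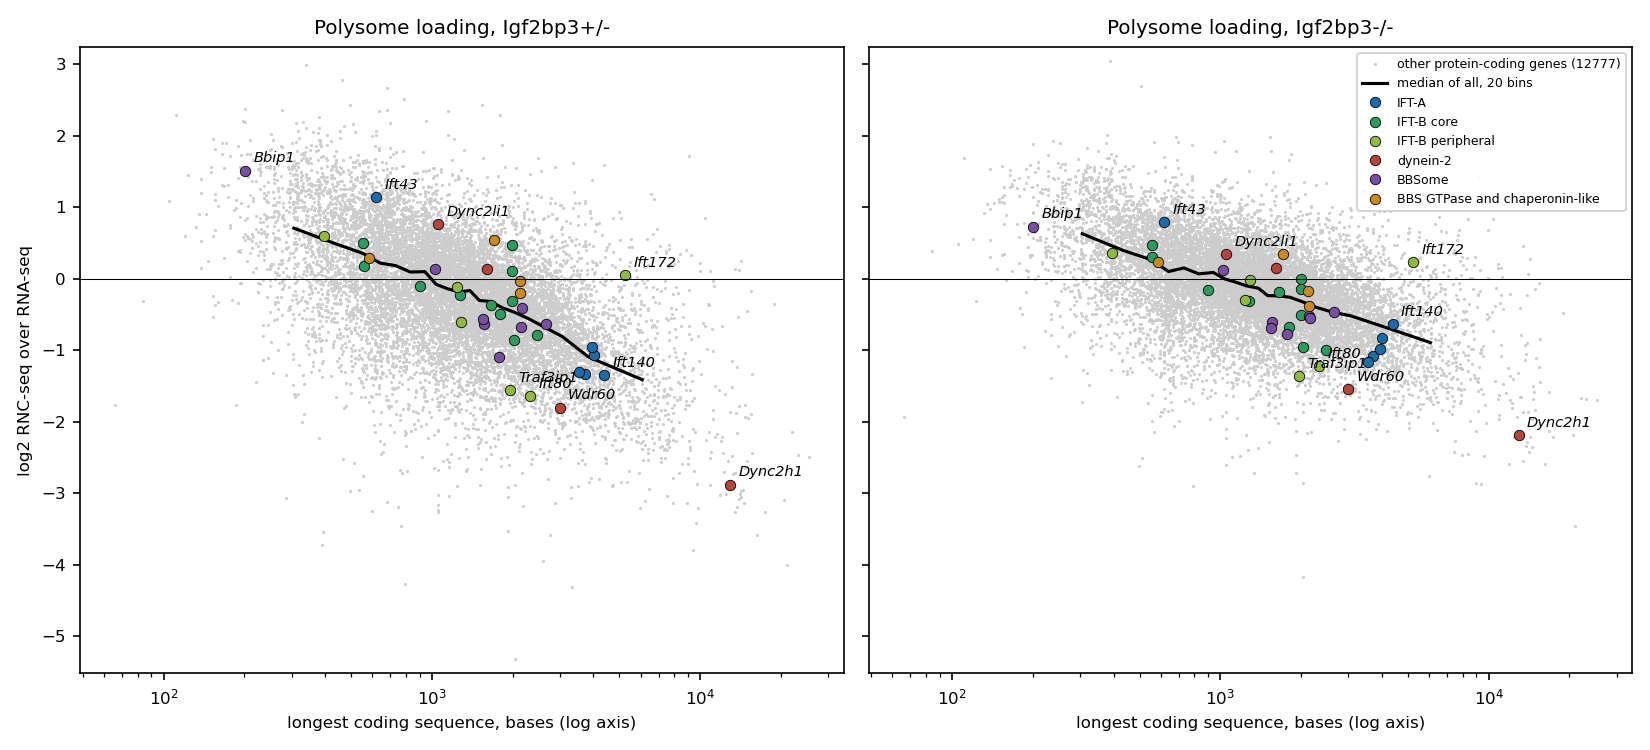
Polysome loading against the length of the longest coding sequence (log axis) in Igf2bp3+/- (left) and Igf2bp3-/- (right), for 39 members (coloured by complex) over all other protein-coding genes (grey), with the median of all in 20 bins of length (line). Members follow the falling line, with Ift172 above it at 5247 bases and Traf3ip1 and Wdr60 below it.

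The other genes of the pathway were tested in the same fits. No gene of the kinesin-2 motors, dynein light chains, IFT and BBSome partners, planar polarity effectors (CPLANE), ciliary kinases, ciliary transcription factors or transition zone passed in RNA-seq, RNC-seq or TE between genotypes (limma). At an unadjusted p under 0.05, 9 of the 52 tested were higher and 2 lower in RNA-seq, where 10.4% and 5.32% of all genes were. In RNC-seq 3 of 51 were higher, near the 5.36% of all genes, and in TE 4 of 51, against 5.54%. No gene was lower in either (1.12% and 1.58% of all genes). In Igf2bp3+/- RS, 3 of the 4 kinesin-2 genes tested were lower on polysomes, against 25.2% of all genes. The motor subunits Kif3a and Kif3b and their adaptor Kifap3 had loadings of -0.961, -0.999 and -1.02 (limma adjusted p = 0.00207, 0.000669 and 0.00303), and Kif3a and Kif3b were also lower in Igf2bp3-/-. The small dynein light chains, which bind the intermediate chains, were on the opposite side, with 5 of 6 higher in both genotypes, against 18.2% of all genes in Igf2bp3+/- and 10.2% in Igf2bp3-/-. Tctex1d2, a light chain of dynein-2, went from 167, 165 and 119 FPKM to 481, 333 and 390 FPKM in Igf2bp3+/- (1.41, SE 0.18, limma adjusted p = 0.000562). Dynlrb2 had the highest of these loadings, 1.77, and Dynlt3 did not pass. Neither the kinesin-2 nor the light chain loadings were compared within classes of coding length. Of all protein-coding genes with up to 1000 coding bases 33.1% were higher in Igf2bp3+/- and 18.7% in Igf2bp3-/-. Of those from 2000 to 3000 bases 50.5% were lower in Igf2bp3+/-.

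The gene with the smallest p in each list is given for the genotype comparisons. In RNA-seq these were Arl3, a GTPase that releases lipidated cargo in cilia (0.38, limma adjusted p = 0.201), the transition zone gene Iqcb1 (0.64, limma adjusted p = 0.207), Rfx4, Mok, Tctex1d2, Kifap3 and Rsg1, with limma adjusted p-values of 0.266 to 0.559 in the last 5. In RNC-seq, 2410089E03Rik, a CPLANE subunit, was 1.81, 3.67 and 3.34 FPKM in Igf2bp3+/- and 6.05, 9.12 and 4.83 FPKM in Igf2bp3-/-. The groups stood apart by 1.17 on the log2 scale (SE 0.32, limma adjusted p = 0.593). Foxj1, the transcription factor of motile cilia, was 39.0, 57.8 and 45.0 against 77.3, 149 and 71.0 FPKM, also apart, by 1.00 (SE 0.28, limma adjusted p = 0.614). The same pair led their lists in TE, at 1.34 and 1.03 (limma adjusted p = 0.686 for both).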

How the data were processed

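Round spermatids of Igf2bp3+/- and Igf2bp3-/- mice were profiled as RNA-seq and RNC-seq, 3 replicates each. Per the labels and methods, the authors trimmed reads with Trim Galore 0.6.6, aligned them to GRCm38 (mm10) with HISAT2 and assembled and quantified genes with StringTie 2.1.7, and they deposited FPKM values per gene and library in 1 table. The strand setting and the annotation release are not given in the sources used here. Read depth is unknown, since FPKM holds no counts, so no counting interval was given. Of 28668 gene names in the table, 25 had been turned into dates by a spreadsheet and were left out (0.0995% of the summed FPKM).

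Values were tested as log2(FPKM + 0.1) with limma 3.58.1 (R 4.3.3, intensity trend, 2-sided), over genes with a mean FPKM above 0.1 in each assay tested, with Benjamini-Hochberg adjustment over all genes and calls at an adjusted p under 0.05. A fold on this scale understates the change of low genes. TE was the interaction of genotype and assay. The code was tested on simulated data with known changes. Labels name the replicates by number only. The methods take RS from single mice and split an extract between the assays, but do not say that a shared number marks a shared extract, so loading and TE were fitted without a block and with it as an alternative. Gene positions, coding lengths (the longest coding sequence) and overlaps came from GENCODE M21 (GRCm38), in which 27780 symbols matched a single gene, and near-identical copies from BLAST 2.17.0 at 95% identity over 50% of the transcript, which took only Ttc30a1 and Ttc30a2 among the members. Promoter windows came from RefSeq. Groups came from the sample titles, which name as Igf2bp3+/- the columns headed WT.

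The members and lists were chosen with earlier results of these data known. Named members were those past the limit, and otherwise the 5 with the smallest p per genotype comparison, the 5 highest and 5 lowest loadings past the limit and the 5 highest and lowest levels, with the TTC30 copies, Ift20 and Ift88 always named. Ift172 as an exception in length, the complex counts and the X-box genes were chosen after their values were seen. Alternatives were other pseudocounts and filters, median centring, quantile normalisation, library weights, a replicate block, a fit over all 12 libraries, the study's limits, which its sources give both as a log2 change over 1.5 and as a 1.5-fold change, and leaving out each library.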

Additional observations from a re-analysis of the deposited data

How the results depend on the processing

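The counts of 0 members past the adjusted limit in RNA-seq, RNC-seq and TE between genotypes held under every alternative with a test, and also at an unadjusted p under 0.05 with a log2 change over 1.5, a form in which the study states its limits. In the other form, a 1.5-fold change, added after the data had been seen, RNA-seq had 1 member lower (Ift57) and TE 1 higher (Dync2h1) and 1 lower (Bbip1), while RNA-seq had 0 higher and RNC-seq 0 in either direction. The plain TE ratio gave 2 members higher and 1 lower. Counts at an unadjusted p moved. In RNA-seq, 7 higher and 2 lower members became 4 and 4 with quantile normalisation and 3 and 0 with the fit over all 12 libraries, and 1 was lower with the length trend removed. Leaving out 1 library gave 3 to 6 higher and 1 to 2 lower members. In RNC-seq, 2 were lower with the length trend removed in place of 0, and leaving out 1 library gave 0 to 2 higher. In TE, the 1 higher member became 0 with median centring, quantile normalisation, library weights or the length trend removed, and the 1 lower member became 4, 3, 2 and 4. Leaving out 1 library gave 0 to 3 higher and 0 to 3 lower. Loading in Igf2bp3+/- was 9 higher and 9 lower members with the length trend removed in place of 5 and 15. It was 3 to 7 higher and 14 to 16 lower on leaving out 1 library. Of all genes 22.4% and 16.8% were higher and lower with the trend removed. On leaving out 1 library 12.9 to 20.7% of all genes were higher and 19.2 to 24.3% lower. Loading in Igf2bp3-/- was 3 higher members, 1 with a pseudocount of 0.01 or with no filter and 0 to 4 on leaving out 1 library. Of all genes 9.75%, 5.25% and 2.55 to 16.9% were higher under these settings. It was 10 lower members, 17 with the fit over all 12 libraries and 6 to 18 on leaving out 1 library. Of all genes 14% and 3.46 to 17.3% were lower under the last 2 settings. Beyond the fewer samples or changed values that each setting uses, the cause was not tested.

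The assays share extracts, but the sources used here do not tie a number to an extract, and the libraries did not settle whether the numbers pair them. Same-numbered libraries of both genotypes deviated together at r = -0.117 to 0.0357 in RNA-seq and -0.0844 to 0.255 in RNC-seq, and those of both assays at -0.105 to 0.262 in Igf2bp3+/- and -0.0506 to 0.187 in Igf2bp3-/-. Between assays, 4 of the 6 libraries correlated best with their own number in each genotype, and 2 same-numbered pairs in each were over r = 0.1. Between genotypes, where a number marks no shared extract, 1 of 6 libraries did so in RNA-seq and 2 of 6 in RNC-seq. With the replicate block, 4 members were higher and 1 lower at an unadjusted p in RNA-seq, and the adjusted genotype counts stayed at 0. Loading in Igf2bp3+/- stayed at 5 higher and 15 lower, against 18% and 24.1% of all genes with the block. Loading in Igf2bp3-/- was 2 higher and 11 lower, against 10.9% and 11.4% of all genes. Members named for their p or loading kept their direction, but some always named did not. Loading in Igf2bp3+/- of Ttc30a1 turned to 0.11 with the length trend removed, and that of Ttc30b was -0.0244 to 0.30 on leaving out 1 library. Loading in Igf2bp3-/- of Ttc30a2, near 0, turned to 0.0348 with median centring, 0.0300 with library weights and 0.0928 with the length trend removed, and on leaving out 1 library was -0.10 to 0.10, and that of Ttc30b -0.28 to 0.10. Leaving out 1 library also turned the RNA-seq difference of Ift20 (-0.0237 to 0.28) and the RNC-seq differences of Ttc30a1 (-0.36 to 0.11), Ttc30b (-0.24 to 0.20), Ift20 (-0.11 to 0.0365) and Ift88 (-0.22 to 0.0668). None of these had passed the limit. Over all 39 members, a single alternative changed the sign of up to 8 in RNA-seq, 10 in RNC-seq, 6 in TE, 5 in loading in Igf2bp3+/- and 4 in Igf2bp3-/-, of which 0 had been called. Of 224 values of the 14 named loadings in Igf2bp3+/-, 5 lost the limit (Ift20 and Ift22 on leaving out a library, Ift88 with the length trend removed) and 6 of Ttc30a2 gained it, and in Igf2bp3-/- 22 lost it and 2 gained it.

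FPKM without counts leaves the depth behind low members such as Mkks and Ttc8 unknown, and the sums of other cells' markers that moved with genotype were not taken out of any comparison.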

Other observations

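Loading of the wider ciliary lists is given as values, without comparison within classes of coding length. In Igf2bp3+/- RS 4 of the 5 ciliary transcription factors were lower on polysomes, where 25.2% of all genes were lower. Rfx2, which binds X-boxes and is needed for spermiogenesis, had a loading of -1.27 (SE 0.14, limma adjusted p = 0.000256). Rfx1 had -1.10, Foxj1 -0.67 and Rfx4 -0.46, while Rfx3 did not pass. In Igf2bp3-/- only Rfx2 of the 5 was lower (-0.87, SE 0.24, limma adjusted p = 0.0317), and no difference in loading of these genes between genotypes passed the adjusted limit. Over all genes 18.2% were higher in Igf2bp3+/-, and 10.2% were higher and 11% lower in Igf2bp3-/-. Of 15 transition zone genes, 3 were higher and 5 lower in Igf2bp3+/- and 2 higher and 4 lower in Igf2bp3-/-. None of the 4 ciliary kinases tested passed in either genotype. Of the 12 partners of IFT and the BBSome, 3 were higher and 4 lower in Igf2bp3+/- and 0 passed in Igf2bp3-/-. Of the 5 CPLANE genes 1, 2410089E03Rik, was lower in both, at -2.49 (SE 0.25, limma adjusted p = 0.000215) and -1.15 (SE 0.26, limma adjusted p = 0.0151).

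Foxj1 was 64.8, 78.1 and 81.0 FPKM in Igf2bp3+/- and 84.1, 82.8 and 56.0 FPKM in Igf2bp3-/- RNA-seq, where the genotypes overlapped, unlike in RNC-seq.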
